A study of Daphnia magna with 12 samples.

Results

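The 177 genes described here stood highest in the same 4 of 12 libraries of old and young Daphnia magna, a freshwater crustacean whose females reproduce clonally. Those 4 libraries are replicates 2, 3 and 4 of old females that had stopped reproducing and replicate 4 of old females that were still reproducing. The genes were chosen from the measured values, by 4 conditions on counts per 1000000 counts of the library (CPM). Their mean over the 12 libraries was at least 1 CPM. The lowest of the 4 named libraries lay above the highest of the other 8. The mean of the 4 was at least 2 times the mean of the 8, a quotient called the ratio below. At least 1 young library held more than 3 counts. Of the 21456 gene models measured, 192 met the first 3 conditions. Of these, 5 had no young library above 3 counts and 10 had all 8 old libraries above all 4 young ones, and both sets were left out.

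All females belonged to 1 clone, genotype GB-EL75-69, housed singly in 20 mL of ADaM medium at 20 C and given the green alga Scenedesmus acutus every day at 100000 cells per mL, and age was the only variable set on them. Young females were 20 days old and reproducing, and both old groups, reproducing and non-reproducing, were 130 to 170 days old, with 4 libraries in each of the 3 groups. There was no young group without reproduction. RNA came from whole bodies, labelled somatic. With 1 clone, differences between genotypes cannot be seen, and nothing in the labels says whether a library holds 1 female or a pool.

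Adult Daphnia females pass through repeated cycles in which moulting, yolk formation and the release of a brood alternate, and the transcripts of a whole body shift with that cycle. Old females may stop producing broods, and the study set old females that still reproduced beside those that did not. Whole-body RNA mixes gut, fat cells, ovary, carapace epidermis, muscle and nerve, so a change in how many cells of a type are present and a change in RNA per cell cannot be told apart. Gene IDs stand without names in the files, and 0 of the 21456 IDs matched the RefSeq table of Daphnia magna genes. No function is therefore given for any gene, and the tissue label could not be checked against marker genes. No sequence is shown, because the files hold none for these models.

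Total counts ranged from 16015869 in old reproducing replicate 4 to 25659597 in young replicate 4, and between 14326 and 16490 models had reads in a library. The labels number the libraries from 19 to 30 in 1 block per group. Old reproducing replicate 4 is number 26 and old non-reproducing replicates 3, 4, 1 and 2 are numbers 27, 28, 29 and 30. What these numbers mark is not stated, so an effect of their order was not tested. The 4 high libraries are all labelled old, and the labels name no state that they share and the other old libraries lack. One of the 4 carries the label of the reproducing group, and the non-reproducing replicate 1 is not among them. Whether old reproducing replicate 4 carries the right label was not tested, and every mean, SD and comparison of the old reproducing group that includes it depends on that label.

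The summed level of the 177 genes differed most between old non-reproducing replicates 2 to 4 and all other libraries. The genes held 0.165, 0.260, 0.294 and 0.485% of all counts in young replicates 1 to 4. In old reproducing replicates 1 to 4 they held 0.411, 0.273, 0.380 and 0.990%. In old non-reproducing replicates 1 to 4 they held 0.336, 4.81, 5.79 and 5.68%. Replicates 2 to 4 of the non-reproducing group thus stood far above every other library, and replicate 1 of that group lay within the range of the young. Old reproducing replicate 4 lay between, nearer to the low libraries than to the high ones. The mean share was 0.301 ± 0.134% for young, 0.514 ± 0.323% for old reproducing and 4.15 ± 2.58% for old non-reproducing libraries (SD, n = 4 in every group). Without replicate 4 the old reproducing mean was 0.355 ± 0.0721% (SD, n = 3). Counting error was small beside these differences: the 95% Wilson interval was 0.985 to 0.995% in old reproducing replicate 4 and 0.334 to 0.339% in old non-reproducing replicate 1, and it covers counting error only.

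**Figure D1:**
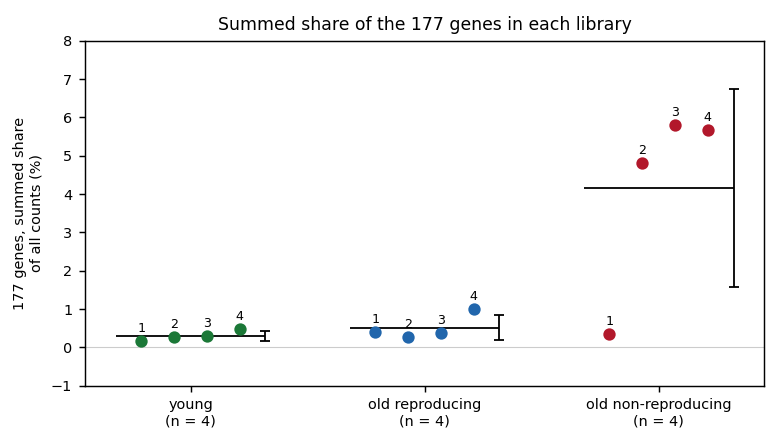
Summed share of the 177 genes in all counts of each library (vertical axis, percent), by group, with the replicate number above each point, the group mean as a line and the SD as a bar (n = 4). Old non-reproducing replicates 2, 3 and 4 sit at 4.81 to 5.79%, old reproducing replicate 4 at 0.990% and the other 8 libraries at 0.485% or below; the genes were chosen for this separation.

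Per length of gene model, several of these genes reached the top of the expression range. Among the 500 models with the highest reads per kilobase per 1000000 reads (RPKM), 37, 43 and 40 were members in old non-reproducing replicates 2, 3 and 4. There were 10 in old reproducing replicate 4 and 0 to 2 in each of the other 8 libraries. At the low end, 35 of the 177 genes had 3 counts or fewer in young replicate 1 and 1 had so few in young replicate 4. A count of 0 allows up to 0.177 CPM in young replicate 1. None of the 177 genes was at or under 3 counts in any of the 4 high libraries, which the rule nearly fixes. It asks for more than 3 counts in a young library and sets the 4 above every young library in CPM.

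The ratio of the 4 high libraries to the other 8 had a median of 11.8 and ran from 2.03 to 704. It was 50 or more in 54 genes, 10 to 50 in 37, 3 to 10 in 64 and 2 to 3 in 22. These limits were set after the values were seen. Genes with a ratio of 50 or more made up most of the summed level: they held 3.09, 4.20 and 3.99% of all counts in old non-reproducing replicates 2, 3 and 4, against 0.0120 to 0.0663% in young libraries. Genes with a ratio of 2 to 3 were already expressed at a median of 27.4 to 51.9 CPM across the young libraries and had a median of 132 to 179 CPM in old non-reproducing replicates 2 to 4. In 25 genes all 8 other libraries lay under 1 CPM.

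**Figure D2:**
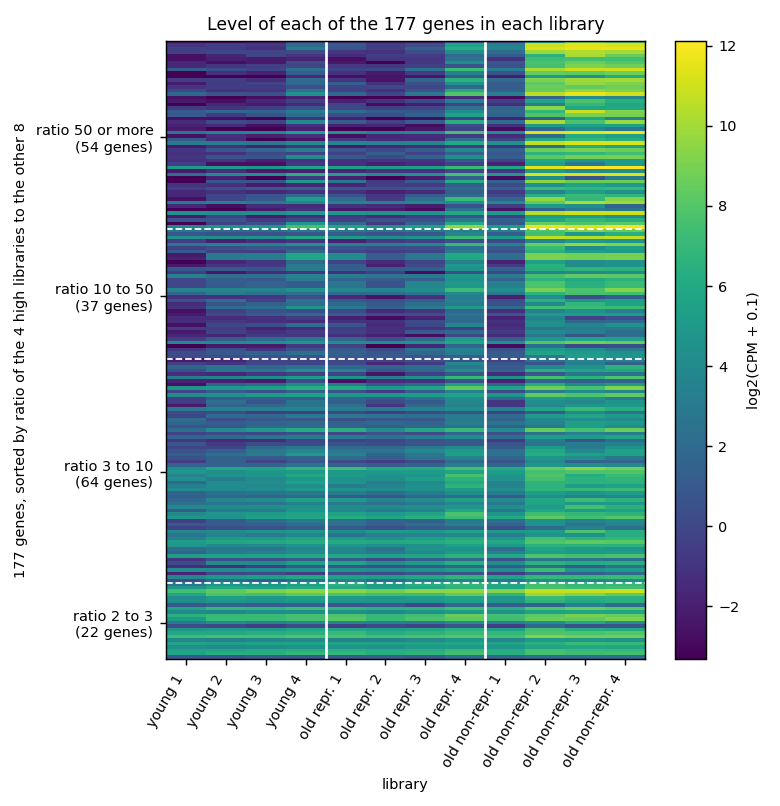
Level of each of the 177 genes (rows, sorted by ratio, classes divided by dashed lines) in each library (columns, young, old reproducing and old non-reproducing, replicates 1 to 4), as log2(CPM + 0.1). The 54 genes with a ratio of 50 or more are near the bottom of the scale in the low libraries and reach their highest levels in old non-reproducing replicates 2 to 4, while the 22 genes with a ratio of 2 to 3 are expressed throughout.

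The member with the highest mean level over the 12 libraries in CPM was maker-000011F-snap-gene-27.88, a model of 7080 nucleotides on contig 000011F. It had 32.1, 31.7, 28.7 and 48.5 CPM in young replicates 1 to 4 and 43.4, 34.8, 40.1 and 136 CPM in old reproducing replicates 1 to 4. In old non-reproducing replicates 1 to 4 it had 55.7, 2908, 4461 and 4308 CPM. Young and old reproducing replicates 1 to 3 overlapped, and old non-reproducing replicate 1 stood slightly above all of them. The log2 change of old non-reproducing against young females was 6.43 (SE 1.11 in edgeR's fit). Between the 2 old groups its log2 change was 5.70 (SE 1.08). The leading members were chosen on these levels, so their changes are given with no test.

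The largest ratio, 704, among members of at least 10 CPM belonged to maker-000000F-snap-gene-49.54, a model of 1497 nucleotides on contig 000000F. Young replicates 1 to 4 held 0.0591, 0.0528, 0.169 and 0.935 CPM, which is 1, 1, 3 and 24 counts. Old reproducing replicates 1 to 4 had 0.325, 0.158, 0.178 and 1.69 CPM. Old non-reproducing replicates 1 to 4 had 0.900, 45.5, 652 and 279 CPM. The 3 high non-reproducing libraries differed among themselves by more than 10-fold, and old reproducing replicate 4, at 1.69 CPM from 27 counts, lay above young replicate 4, at 0.935 CPM from 24 counts. Its log2 change in old non-reproducing against young females was 9.69 (SE 1.93). The log2 change between the old groups was 9.04 (SE 1.87).

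The next members by mean CPM differed in how low they lay elsewhere. The second, a 6305-nucleotide model of contig 000028F, had 14.6, 23.8, 26.4 and 188 CPM in young replicates 1 to 4 and 732 CPM in old reproducing replicate 4. It had 3289, 2528 and 3527 CPM in old non-reproducing replicates 2 to 4 and 33.1 CPM in replicate 1. Its log2 change in old non-reproducing against young females was 5.31 (SE 1.61). The third, a 4068-nucleotide model of contig 000066F, was abundant everywhere, with 175 to 687 CPM in young libraries, and old non-reproducing replicates 2 to 4 had 1654 to 2002 CPM of it. Its old reproducing replicate 4, at 744 CPM, was only just above replicate 3 of the same group, at 692 CPM.

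The members ranked 4 and 5 by mean CPM were short models. The fourth, 721 nucleotides on contig 000011F, had 6.50, 12.6, 14.1 and 45.9 CPM in young replicates 1 to 4. Its levels in old non-reproducing replicates 2 to 4 were 2773, 3105 and 3516 CPM. Per length it was the highest of the 5, at 3846, 4306 and 4877 RPKM in those 3 libraries. The fifth, 1232 nucleotides on contig 000018F, had 0.650, 0.581, 0.338 and 8.57 CPM in young replicates 1 to 4 and 11.5 CPM in old non-reproducing replicate 1. It had 78.2 CPM in old reproducing replicate 4 and 2536, 3148 and 2952 CPM in old non-reproducing replicates 2 to 4. Both showed young replicate 4 above the other 3 young libraries. Against young, the log2 change in old non-reproducing females was 6.98 (SE 1.58) for the fourth and 9.85 (SE 2.37) for the fifth.

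**Figure D3:**
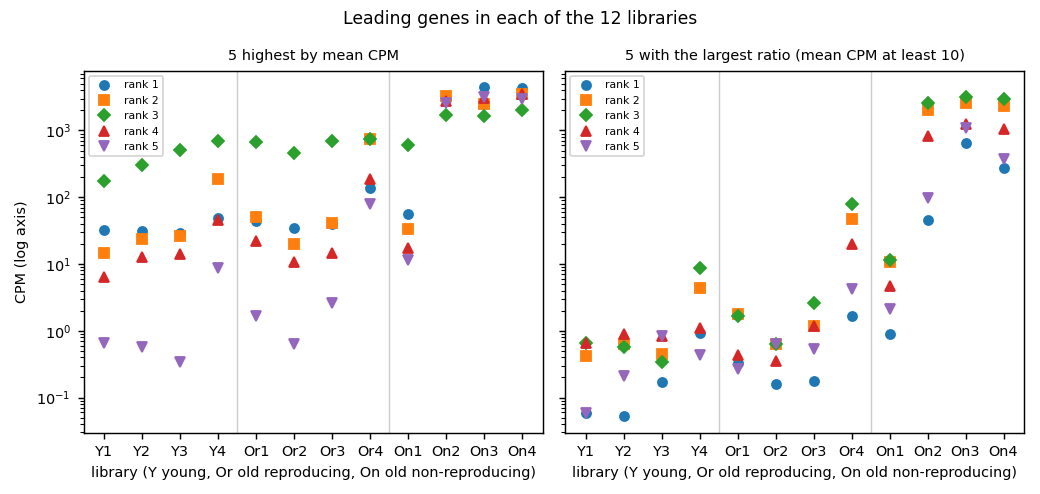
CPM (log axis) in each library of the 5 members with the highest mean CPM (left) and of the 5 members with the largest ratio among those of at least 10 CPM (right), 1 symbol per gene. In both panels old non-reproducing replicates 2 to 4 are highest, and old reproducing replicate 4 lies above the rest of its group, at 78.2 to 744 CPM on the left and 1.69 to 78.2 CPM on the right.

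Among the 5 largest ratios, those ranked 2 and 3 belonged to models with the same contig, 000018F, and the same block number, 7. In IDs of this form a number before the last point follows the word gene, and is called the block number here. The model ranked 2, 1617 nucleotides long, had 1995, 2595 and 2298 CPM in old non-reproducing replicates 2 to 4 and 47.6 CPM in old reproducing replicate 4. The fourth, 2401 nucleotides on contig 000023F, had 0.650 to 1.09 CPM in young libraries, and old non-reproducing replicates 2 to 4 had 839 to 1258 CPM of it. Of the 5, it varied least among young libraries. The fifth, 1458 nucleotides on contig 000006F, had 96.4, 1094 and 375 CPM in old non-reproducing replicates 2, 3 and 4.

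Within the 3 high non-reproducing libraries the members did not keep 1 common pattern. The highest of the 4 high libraries was old non-reproducing replicate 2 in 73 genes, replicate 3 in 69 and replicate 4 in 32, and old reproducing replicate 4 in 3. The median quotient of the highest to the lowest of old non-reproducing replicates 2 to 4 was 1.96, against 1.72 over all 10987 genes tested. These 3 libraries lay within a factor of 2 in 89 genes (50.3%), against 62.8% of all genes tested, and the quotient was 5 or more in 28 of the 177 genes. Replicate 2 was at least 2 times replicate 3 in 36 genes, and replicate 3 at least 2 times replicate 2 in 41. These counts rest on CPM by library total and were not taken over all genes tested. The TMM scaling factors used in the edgeR fit were 1.08 for replicate 2 and 0.831 for replicate 3. On that scale replicate 2 would be lower relative to replicate 3, and the counts were not repeated on it. The highest-ratio class leaned to replicate 3, which was the highest library in 33 of its 54 genes, while replicate 2 was highest in 31 of the 64 genes with a ratio of 3 to 10. One model of 1934 nucleotides on contig 000001F had 715 CPM in replicate 2 against 53.0 and 67.7 CPM in replicates 3 and 4. A model of 1294 nucleotides on contig 000006F had the reverse order, with 118 CPM in replicate 2 against 1763 and 571 CPM in replicates 3 and 4. Both of these models were picked as examples after their values were seen.

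**Figure D4:**
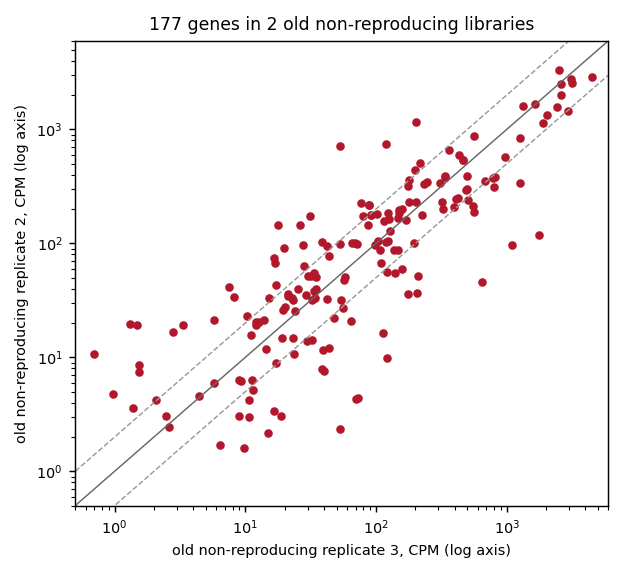
CPM of the 177 genes in old non-reproducing replicate 3 (horizontal, log axis) and replicate 2 (vertical, log axis), 1 point per gene, with the line of equal level and dashed lines at 2 times either way. In 36 genes replicate 2 is at least 2 times replicate 3, and in 41 genes the opposite holds. CPM is by library total, and TMM scaling would lower replicate 2 relative to replicate 3.

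Old reproducing replicate 4 was the lowest of the 4 high libraries in 135 of the 177 genes (76.3%), and it lay below the other 3 in 15.3% of all genes tested. Its level was a median of 28.1% of the mean of old non-reproducing replicates 2 to 4, with quartiles at 9.02 and 61.1% and extremes at 0.434 and 322%. Over all 10987 genes tested that median was 110%. The percentage went down as the ratio went up, from a median of 65.2% in genes with a ratio of 2 to 3, through 47.0 and 20.7%, to 4.10% in genes with a ratio of 50 or more. The ratio includes this library, so the order is a description. It was under 10% in 48 genes, of which 42 were in the class of 50 or more. It was at or above 100% in 11 genes.

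The highest of these, a model of 805 nucleotides on contig 000051F, had 14.9 CPM in old reproducing replicate 4 against 1.60, 9.75 and 2.54 CPM in old non-reproducing replicates 2 to 4. The 4 young libraries had 0.422 to 0.845 CPM of it and old reproducing replicates 1 to 3 had 0.238 to 1.03 CPM. This library was thus not at 1 fixed fraction of the non-reproducing level across the genes. It also had the fewest total counts of the 12, and the part of depth or of its preparation in these levels was not tested.

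**Figure D5:**
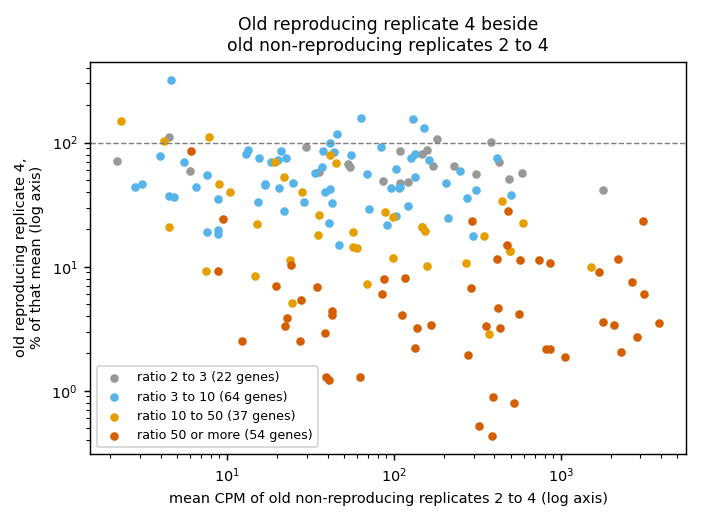
Level of old reproducing replicate 4 as a percentage of the mean of old non-reproducing replicates 2 to 4 (vertical, log axis) against that mean in CPM (horizontal, log axis), 1 point per gene, coloured by class of ratio, with a dashed line at 100%. The medians run from 65.2% in the class of 2 to 3 to 4.10% in the class of 50 or more, and 11 genes are at or above 100%. The order of the classes is partly built in, since the same libraries enter the ratio and the percentage.

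The order within the low libraries was not set by the rule, except through the limit on young counts and through the 10 genes left out. Young replicate 4 was the highest young library in 140 of the 177 genes (79.1%). Over all genes tested it was highest in 36.5%. It was at least 2 times the mean of young replicates 1 to 3 in 86 of the 177 genes (48.6%), against 5.41% of all genes tested. The median of that quotient was 1.95 in the 177 genes and 1.14 over all genes tested. By class of ratio it was 1.36, 1.92, 1.95 and 3.44 from the lowest to the highest class. Young replicate 4 was also the highest of all 8 low libraries in 86 genes, ahead of old non-reproducing replicate 1 with 32 and old reproducing replicate 3 with 30. It had the most counts of any library, and CPM is relative to that total. At the other end, young replicate 1 was the lowest young library in 115 genes (65.0%), against 43.6% of all genes tested.

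Among old reproducing replicates 1 to 3, replicate 2 was the lowest in 129 of the 177 genes (72.9%), against 43.9% of all genes tested. The median levels of the 177 genes in these 3 libraries were 3.25, 1.82 and 3.39 CPM. Old non-reproducing replicate 1 had a median of 3.00 CPM, inside that range. Its median quotient to the mean of old reproducing replicates 1 to 3 was 1.04, and 1.01 over all genes tested. It lay above all 3 in 62 genes (35.0%, against 29.8% of all genes tested) and below all 3 in 22 (12.4%, against 26%). In the class of ratio 50 or more the median quotient was 1.80, and in the other classes 0.867 to 1.02.

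The comparisons between groups follow from the labels. The rule used these libraries, so the counts of members called describe the selection and are not evidence for it. In old non-reproducing against young females, 115 of the 176 members tested were higher and 0 lower at an adjusted p under 0.05 (edgeR's quasi-likelihood test with Benjamini-Hochberg adjustment over 10987 genes). Of all genes tested 7.73% were called higher and 4.26% lower. The median log2 change of the members was 3.19, and that of all genes tested -0.00. Single libraries moved this count by more than 1.5 times: it was 34 without young replicate 2, 69 without young replicate 4, 65 without old non-reproducing replicate 3 and 58 without old non-reproducing replicate 4. The number of all genes called, in both directions, fell with it, from 1317 to 517, 627, 686 and 530.

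In old reproducing against young females 0 of the 176 members were called by edgeR, while 2.8% of all genes tested were called higher and 0.0728% lower. The rule sets replicate 4 above replicates 1 to 3 of the old reproducing group, and replicate 1 below the others of the non-reproducing group. Both spreads widen the members' standard errors, since the fit estimates each gene's spread across all 3 groups. For maker-000011F-snap-gene-27.88 the SE was 0.89, and 0.42 without old non-reproducing replicate 1. The count of members called was also 0 without old non-reproducing replicate 1, where 284 of all genes were called. It was 0 without old reproducing replicate 4 (262 of all genes) and in a fit to these 2 groups alone (191 of all genes). How far the selection sets the 0 was not tested, and the 0 is not read as a result about the members. With all 12 libraries the members' smallest adjusted p by edgeR was 0.124. An unadjusted p under 0.05 by edgeR was reached by 8 of the 176, against 1445 of all 10987 genes tested. DESeq2 called 1 member higher, where 4.76% of all genes with an adjusted p were called higher. The median log2 change of the members was 0.73, against -0.03 over all genes tested. Both of these comparisons share the young libraries.

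Leaving out old reproducing replicate 4 gave the comparison of old reproducing replicates 1 to 3 with young, whose libraries all lie on the low side of the rule. There the members' median log2 change was -0.03, against -0.05 over all 11505 genes tested, and 82 of the 177 members had a positive change. By edgeR 0 members were called, 2 had an unadjusted p under 0.05 and the smallest adjusted p was 0.239, while 2.23% of all genes tested were called higher and 0.0435% lower. DESeq2 also called 0 members higher, where 4.24% of all genes with an adjusted p were called higher. The rule left out genes with all 8 old libraries above all young ones, which lowers the chance of a call here. So does the fit, which estimates each gene's spread across all 3 groups. The rule sets old non-reproducing replicate 1 low and replicates 2 to 4 high, which widens the members' standard errors. For maker-000011F-snap-gene-27.88 the SE was 0.92, and 0.27 without old non-reproducing replicate 1. How far the selection sets the 0 was not tested, and the 0 is not read as a result about the members. Fitted by edgeR to these 2 groups alone, 0 of 146 members and 82 of all genes were called. The split of signs was not stable. Without young replicate 4 as well, the members' median log2 change was 0.33, against -0.08 over all genes, and 133 of the 177 members had a positive change. With limma-trend on log2(RPKM + 0.1) the median was 0.17, against 0.08 over all genes, and 121 members were positive. An unadjusted p under 0.05 by edgeR was reached by 1260 of all 11505 genes tested, a larger share than the 2 of 177 members. These 2 members share contig 000011F and block 19. The first, 849 nucleotides long, had 7.62, 24.9, 26.7 and 42.6 CPM in young replicates 1 to 4 and 90.6, 40.0 and 77.8 CPM in old reproducing replicates 1 to 3. The groups overlapped, since old reproducing replicate 2 lay below young replicate 4. Its log2 change of 1.42 (SE 0.48) had an adjusted p of 0.239 by edgeR, and the log2 change of the second, 2494 nucleotides long, was 1.23 (SE 0.47, adjusted p = 0.329 by edgeR).

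Between the 2 old groups 0 members and 0.0% of all genes tested were called by edgeR, with 129 of the 176 members and 886 of all genes at an unadjusted p under 0.05. The members' median log2 change, old non-reproducing minus old reproducing, was 2.44. Without old non-reproducing replicate 1, which the rule requires to be low, edgeR called 93 members higher, where 2.43% of all genes tested were called higher. DESeq2 on all 12 libraries called 100 members higher, where 2.75% of all genes with an adjusted p were called higher.

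The 177 genes came from 42 contigs. The 176 tested members made up 1.60 of every 100 genes tested. The contigs with most members were 000001F with 18, 000003F with 15, 000018F with 14, and 000000F and 000011F with 11 each. Relative to the genes tested on the contig, these were 2.61, 3.06, 3.86, 1.25 and 2.35 per 100. Of the members, 85 (48.0%) shared both contig and block number with another member. Of the other 10811 genes tested, 14.3% shared them with a member. The 10 near-duplicate models described below are among the 85, and block size was not taken into account. The fullest block was number 42 of contig 000003F, with 7 members among 42 genes tested, followed by block 16 of contig 000018F, block 0 of contig 000042F and block 1 of contig 000073F with 4 each.

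In block 42 of contig 000003F, 6 members carried the consecutive ID numbers 227 to 232. The ratio was at least 51.3 in 5 of these 6, and the model numbered 227 had 2.44. The model numbered 228, 948 nucleotides long, had 0.295, 1.06, 0.789 and 18.4 CPM in young replicates 1 to 4. It had 2.27, 0.713, 2.50 and 84.6 CPM in old reproducing replicates 1 to 4 and 4.63, 1151, 203 and 873 CPM in old non-reproducing replicates 1 to 4. The model numbered 229 followed the same order of libraries, with 40.3 CPM in young replicate 4 against at most 1.75 CPM in the other young libraries, and 136 CPM in old reproducing replicate 4. In the model numbered 230 the 3 high non-reproducing libraries were more even, at 342, 311 and 411 CPM. Models of like sequence in 1 cluster can share reads, and how the authors' counting assigned such reads is not given in the sources used here.

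Some members may be the same transcript listed more than once. In 5 pairs of members of 1 contig and block, the quotient of their counts was nearly the same in every library with at least 20 counts of both (SD of its log2 under 0.15). In a pair of contig 000001F, of 3632 and 2285 nucleotides, the quotient ran from 1.00 to 1.03 over 11 libraries. In a pair of contig 000018F, of 2743 and 1004 nucleotides, the quotient ran from 1.00 to 1.11 over 11 libraries. In the other pairs the counts were unequal. The quotient ran from 2.16 to 2.86 over 12 libraries on contig 000073F and from 3.75 to 4.41 over 7 libraries on contig 000013F. On contig 000022F it ran from 2.43 to 2.95 over 5 libraries. The 10 models of these 5 pairs are therefore uncertain as separate genes, and they enter the summed shares separately.

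The gene models themselves looked like the rest of the genes tested. Their median length was 2167 nucleotides, with quartiles at 1294 and 3453, against 2204 with quartiles at 1160 and 3785 over all genes tested. The 54 genes with a ratio of 50 or more had a shorter median of 1511. Models whose IDs begin with maker and name the augustus predictor made up 53.7% of members and 52.0% of genes tested, and those that name the snap predictor 24.3 and 24.5%. The median over genes of the mean level per length was 10.4 RPKM in the members and 5.35 RPKM over all genes tested, and the limit of 1 CPM on the members bears on that difference.

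Near the limits of the rule, membership rested on small differences. The smallest ratio inside was 2.03, and the largest among the 51 genes that failed only this limit was 1.95. The lowest of the 4 high libraries exceeded the highest of the other 8 by a median of 1.62 times. The excess was under 1.1 times in 25 genes and 2 times or more in 66, and the largest was 22.6 times. The nearest of 273 genes that failed only this condition stood at 0.986. The mirrored condition, with all 4 libraries below the other 8 and a mean at most 1 over 2 of theirs, was met by 146 genes, and the first 3 conditions of the rule by 192.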

How the data were processed

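For 12 libraries the authors deposited a table of counts of reads by gene model, per the file headers, and one of RPKM values, per the file headers, which equal the deposited counts divided by library total and by 1 length per model (to within 1.26e-06 percent). One model has no RPKM value. The submitters' processing notes name STAR and SAMtools; versions, genome build, counting program and use of strand are not given in the sources used here. Total counts of 16015869 to 25659597 per library leave counting error small except in genes of few counts. CPM in the text is count divided by library total.

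Counts were tested in R 4.3.3 with edgeR 4.0.16 (filterByExpr, TMM, robust quasi-likelihood fit to all libraries with 1 mean per group, Benjamini-Hochberg adjustment over all genes tested, threshold 0.05), and the fit was tested on simulated data. One member, with counts below the filter, was not tested. Standard errors are the absolute log2 change over the root of F. DESeq2 1.42.0 and limma 3.58.1 were alternatives, as were other scaling, filters, a replicate block and leaving out libraries. Libraries of the same group were compared pairwise and exceeded sampling noise (chi-square per degree of freedom at least 83.4). Where nothing says that libraries came from separate animals, p-values measure only the spread between libraries. TMM scaling, beside library totals, moved the median log2 difference of all genes by -0.12 between old reproducing and young and by 0.09 and -0.03 in the other comparisons; log2 changes are on the TMM scale.

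The members and the lists were chosen with earlier results of these data known. The 2 IDs are printed by a rule, the members with the highest mean CPM and with the largest ratio at a mean of at least 10 CPM; ranks 2 to 5 of each order are described without ID, and planned groups by product name were not run, since no ID matched a name.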

Additional observations from a re-analysis of the deposited data

Results flagged for a closer look

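Within each group of 4 libraries, the gap of the highest and of the lowest value to its nearest neighbour was divided by the range, for the summed share and for the 9 described members. Of 30 groups of values, 12 had a library past Dixon's 95% limit, where chance flags about 1 in 20 groups. That rate is no yardstick here, because the members were selected on these values and were picked for level or ratio. In 4 of them young replicate 4 was highest. The member ranked 2 by mean CPM, on contig 000028F, had 188 CPM there against 14.6 to 26.4 CPM in the other young libraries. The member ranked 5 by mean CPM, on contig 000018F, had 8.57 CPM against 0.338 to 0.650 CPM. The member ranked 2 by ratio, on the same contig, had 4.36 CPM against 0.414 to 0.634 CPM, and that with the largest ratio 0.935 CPM against 0.0528 to 0.169 CPM.

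In the other 8 groups old reproducing replicate 4 was highest, which the rule for members fixes in direction. It had 136, 732, 188 and 78.2 CPM of the members ranked 1, 2, 4 and 5 by mean CPM, the last of which is also ranked 3 by ratio. Of the members ranked 1, 2, 4 and 5 by ratio it had 1.69, 47.6, 19.8 and 4.18 CPM.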

How the results depend on the processing

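The count of members called in old non-reproducing against young females, 115 among 1317 of all genes called, moved by more than 1.5 times under 6 alternatives: 19 of 307 at an adjusted p of 0.01, 51 of 448 in a fit to the 2 groups alone, 66 of 875 with no filter on low counts, and 62 of 654 and 67 of 776 with limma-trend on log2(RPKM + 1) and log2(RPKM + 0.1). With the replicate number as a block it was 62 of 498. Its range over fits without a library was 34 to 150. In old reproducing against young, 0 members were called in every alternative but DESeq2 (1), and leaving out libraries gave 0 to 0. Between the old groups DESeq2 called 100, the other alternatives 0, and leaving out libraries gave 0 to 93. Old reproducing replicates 1 to 3 against young gave 0 under every alternative run, but the members' median log2 change of -0.03, with 82 positive, became 0.42 with 138 positive under the replicate block. Where not stated otherwise the cause was not tested. Same-numbered libraries did not deviate together (correlations of -0.45 to 0.36, 3 of 12 pairs over 0.1), and 0 libraries correlated best with their own number, so the numbers are not taken as pairs.

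The number of members was 177 with TMM-scaled CPM, of which 166 were shared, 148 when the limit on mean level was 5 CPM, and 155 and 201 with a ratio of at least 3 and 1.5. The change of maker-000000F-snap-gene-49.54 in old reproducing against young, 0.65, turned to -0.63 without replicate 4 (range over single libraries left out -0.63 to 2.30). In old reproducing replicates 1 to 3 against young it was -0.63, 0.063 with limma-trend on log2(RPKM + 0.1), 1.35 with the replicate block and -1.02 to 1.00 over libraries left out. That of maker-000011F-snap-gene-27.88 was 0.09 there and -0.043 to 0.19 over libraries left out. None of these changes of sign was called. Depth limits the least abundant members, 35 of which had 3 counts or fewer in young replicate 1.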
